A study of Mus musculus with 2 samples.

Results

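The data were 2 single-cell RNA-seq libraries of small intestinal epithelium that the paper describes as crypt-enriched. In them, 10 transcription factors known to set enterocyte identity and its change from crypt to villus tip were followed. They were the rows of the 55357 genes in the tables whose symbols were Klf4, Klf5, Hnf4a, Hnf4g, Cdx1, Cdx2, Gata4, Creb3l3, Maf or Prdm1, and all 10 were present with UMIs in both libraries. One library came from Adipfl/fl mice, which carry floxed alleles of the adiponectin gene and no Cre and served as control. The other came from Adipfl/flpVilli-CreT mice, in which Cre recombinase driven by the villin promoter removes adiponectin from the gut epithelium. The mice were males of 8 weeks, and each library was made from pooled animals, so there was 1 library per genotype, no test between genotypes was possible, and every interval below is an exact 95% interval that covers counting error only.

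In the small intestine, stem cells at the crypt base give rise to dividing transit-amplifying (TA) cells, whose absorptive progeny, the enterocytes, move up the villus and are shed at its tip. On the way the enterocyte passes through zones with different tasks, from antimicrobial defence at the villus bottom through uptake of sugars and amino acids in the middle to lipid handling and purine metabolism at the tip. The HNF4, CDX and GATA factors hold the intestinal and enterocyte programme, KLF5 is a factor of dividing crypt cells and KLF4 of differentiated cells, and c-MAF, CREB3L3 (CREB-H) and PRDM1 (BLIMP-1) are tied to particular zones or functions of the villus cell.

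Droplet barcodes with more than 500 genes and less than 25% of UMIs (unique molecular identifiers, 1 per captured transcript) from mt- genes were kept, which left 3069 cells with 25687687 UMIs from Adipfl/fl mice and 5555 cells with 48895126 UMIs from Adipfl/flpVilli-CreT mice. Barcodes with more than 500 genes numbered 7739 in Adipfl/fl and 9818 in Adipfl/flpVilli-CreT mice. The mitochondrial limit thus removed a larger share of them in Adipfl/fl mice. The paper, which also names limits of 500 genes and 25%, reports keeping more cells of each genotype. The targeted gene, Adipoq, had 1 UMI over all barcodes of the first library and 0 over those of the second, too few to check the genotype labels. The libraries shared 31 of 9791 and 11838 barcodes, 3 of them among the kept cells. Cells were clustered with the 10 factors left out of the variable genes, and 10 clusters formed an axis of absorptive cells from crypt to tip. The stem-like and TA-like clusters were placed first by name. The other 8 were ordered by the median of a landmark score that held none of the factors. Position 1 was stem-like (41 cells in Adipfl/fl and 118 in Adipfl/flpVilli-CreT mice), position 2 TA-like (45 and 110), position 3 villus bottom-like (228 and 442), positions 4 to 6 mid-villus-like (555 and 1128), position 7 unnamed (384 and 453) and positions 8 to 10 villus tip-like (898 and 2106). Of the kept Adipfl/fl cells, 1.34% were stem-like, 1.47% TA-like and 29.3% villus tip-like. In Adipfl/flpVilli-CreT mice these shares were 2.12%, 1.98% and 37.9%, so crypt cells were few in both libraries. Another 54 cells of the Adipfl/flpVilli-CreT library formed a cluster with no cell of the other library, which was left unnamed and out of the axis. It passed all 12 cycling markers and 4 Paneth markers, so the TA-like class leaves out some cells of that library with cycling transcripts. The cluster at position 1 passed all 11 stem markers, but also 12 cycling, 5 Paneth and 5 fibroblast markers. Position 2 passed 9 cycling markers and fewer than 3 stem markers. The step from position 1 to 2 is thus not one from resting to dividing cells. The 10 leading genes of position 8 held no tip marker, and its name rests on 5 of the 8 tip markers of the list. Levels are given as CPM, the UMIs of a gene per 1000000 UMIs, both summed over the cells of a position or class. Vil1, whose promoter drives the Cre, was read at 203 CPM in stem-like cells and 1878 in mid-villus-like cells of Adipfl/fl mice.

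The cells at the tip were shallower and richer in mitochondrial transcripts than those at the bottom: the median cell held 21458.5 UMIs in villus bottom-like and 3540.5 in villus tip-like cells of Adipfl/fl mice, and mt- genes took 6.58% and 19.4% of the UMIs. Alternatives that bear on these differences were a mitochondrial limit of 10%, more than 1000 genes, cells thinned to 2000 UMIs and a total without mt- UMIs, and their values are given where they change a result. Genes known to differ between segments gave no single picture. Of the genes listed as proximal, Lct (lactase) stood between 274 and 1156 CPM in the 3 villus classes, whereas Slc40a1, Cybrd1, Trpv6 and S100g reached at most 8.75, 4.93, 0.74 and 37.0 in any class of the axis. Of those listed as distal, Slc51b (bile acid export) stood between 114 and 315 in the villus classes, whereas Fabp6, Slc10a2 and Fgf15 reached at most 9.47, 4.81 and 16.2.

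Klf4, Creb3l3 and Prdm1 were higher at the villus tip than at its bottom in both libraries. A gene was counted as higher or lower along the villus where its level in villus tip-like cells was at least 2-fold that in villus bottom-like cells, or the reverse, with an interval that excluded 1. By this rule 3 of the 10 factors were higher in each library, against 11.9% of 7786 genes with at least 10 CPM in Adipfl/fl mice and 12% of 7746 in Adipfl/flpVilli-CreT mice. Another 4 (Klf5, Hnf4g, Cdx1 and Cdx2) were lower in each library, against 46.4% and 48.5% of all genes, a share of the members near that background. The median log2 fold over all genes was -0.86 and -0.94. In Adipfl/fl mice Hnf4g and Cdx1 lay near the 2-fold line, and the count of lower factors there was between 1 and 5 over 16 alternative settings. With a mitochondrial limit of 10%, which left 29 tip-like cells in that library, it was 1, and the log2 fold of Hnf4g was 0.048 in place of -1.04.

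**Figure D1:**
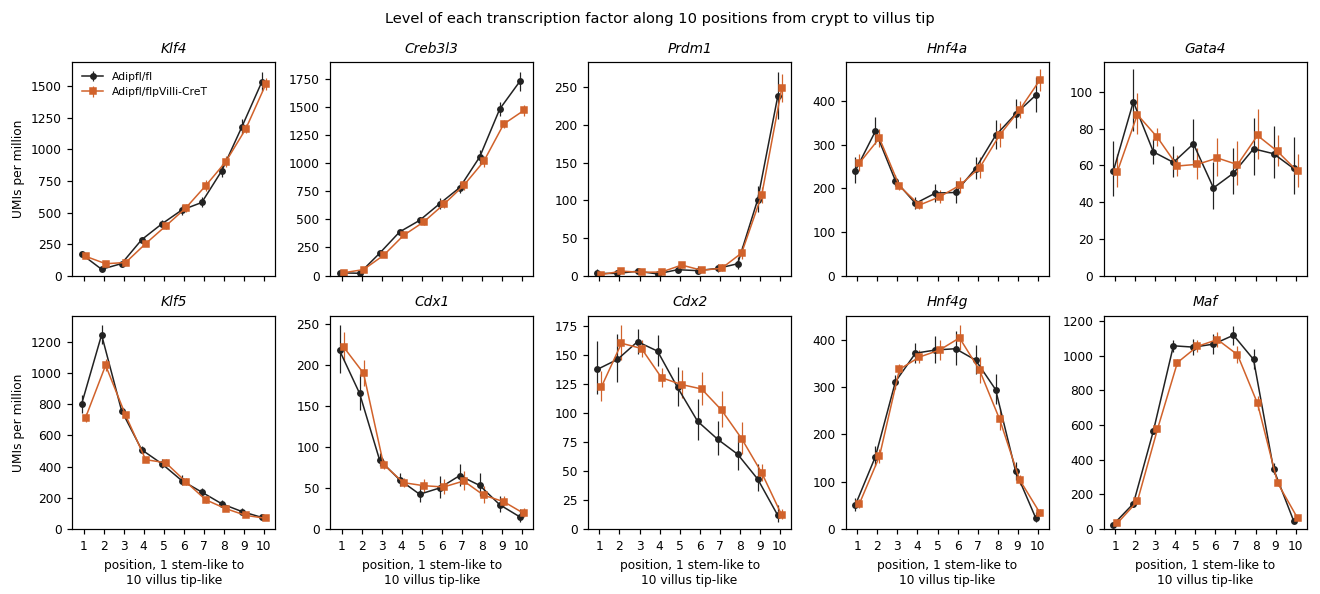
Level of each factor in CPM, UMIs per 1000000 (vertical axes, linear, from 0) at 10 positions from stem-like (1) to villus tip-like (10) cells, with 1 line per library (black circles, Adipfl/fl; orange squares, Adipfl/flpVilli-CreT) and bars for exact 95% Poisson intervals. Klf4 and Creb3l3 climb along the whole villus, Prdm1 is at or below 30.1 up to position 8 and at 238 and 248 at position 10, Klf5 and Cdx1 fall from the crypt, Hnf4g and Maf are arched, and Gata4 stays between 47.8 and 94.7.

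Klf4 (ENSMUSG00000003032, chr4:55527143-55532466, minus strand, in the GENCODE annotation of GRCm38, as for the genes below) encodes a zinc-finger factor that restrains division and is needed for goblet cell maturation. From position 1 to 10 it was read at 169.8, 50.3, 95.3, 285, 409, 519, 579.5, 831, 1178 and 1535 CPM in Adipfl/fl mice. In Adipfl/flpVilli-CreT mice the values were 153, 94.4, 104, 253, 393, 535, 713, 902, 1163 and 1517. In both libraries the lowest level was in the TA-like cells, below the stem-like cells on one side and the villus on the other, and from position 3 on every step was upward beyond counting error. The step from position 2 to 3 was within counting error in Adipfl/flpVilli-CreT mice. Tip-like cells held 1166 (1130.0 to 1202) CPM against 95.3 (87.3 to 104) in bottom-like cells of Adipfl/fl mice, a 12.2-fold difference (11.2 to 13.4), and the fold in Adipfl/flpVilli-CreT mice was 11.8 (11.1 to 12.6). With mt- UMIs left out of the total the folds were 14.2 and 13.8. After thinning each cell to 2000 UMIs, 84.1% (81.4% to 86.5%) of tip-like cells held a Klf4 UMI against 16.8% (12.2% to 22.3%) of bottom-like cells in Adipfl/fl mice, and 11.4% (8.24% to 15.3%) of T cell-like cells, a class that may make some Klf4 of its own. Unthinned, these shares were 91.5%, 68.9% and 20.1%, with median depths of 3540.5, 21458.5 and 4570.5 UMIs.

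Creb3l3 (ENSMUSG00000035041, chr10:81084324-81098874, minus strand) encodes a factor held in the membrane of the endoplasmic reticulum that, once cleaved, drives genes of lipid transport. It was at 25.1, 20.7, 198, 388, 491, 639, 782, 1054, 1479.8 and 1724 CPM from position 1 to 10 in Adipfl/fl mice and at 25.3, 53.8, 180.2, 358, 476, 632, 801, 1014, 1347 and 1467 in Adipfl/flpVilli-CreT mice. The crypt positions were near the floor and each villus position exceeded the one below it beyond counting error in both libraries. Its level in T cell-like cells, 56.7 (46.1 to 69.0) and 148 (131 to 165) CPM, was above that in the crypt. The median T cell-like cell of Adipfl/fl mice held 4570.5 UMIs, against 18065 in stem-like and 25627 in TA-like cells. With depths so unlike, these CPM values cannot tell how much of the crypt level was free RNA in the droplets, and this was not tested. Tip-like cells exceeded bottom-like cells 7.11-fold in Adipfl/fl mice (6.66 to 7.60) and 7.32-fold in Adipfl/flpVilli-CreT mice (6.98 to 7.68). At 2000 UMIs per cell, 90.7% (88.5% to 92.6%) and 89.6% (88.2% to 90.9%) of tip-like cells held a Creb3l3 UMI, against 6.43% (4.07% to 9.58%) and 12.2% (9.17% to 15.9%) of T cell-like cells.

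Prdm1 (ENSMUSG00000038151, chr10:44437177-44528501, minus strand) encodes a repressor that marks immature enterocytes before weaning and is also a factor of plasma cells and effector T cells. It was at 2.89, 2.96, 5.83, 2.28, 7.85, 6.59, 9.53 and 15.7 CPM over positions 1 to 8 in Adipfl/fl mice, then at 101 and 238. In Adipfl/flpVilli-CreT mice it was at 1.42, 5.94, 4.42, 4.74, 14.0, 7.12, 9.70 and 30.1, then at 107 and 248. It thus stayed low until the last 2 positions, while Klf4 and Creb3l3 had already risen in the middle of the villus. Bottom-like cells held only 32 and 50 Prdm1 UMIs, and the tip over bottom folds of 19.2 (13.4 to 28.4) and 31.2 (23.5 to 42.3) carry wide intervals for that reason. The fold in Adipfl/fl mice also moved with the processing, to 7.04 with the mitochondrial limit of 10% and 41.0 with 5 equal groups of the landmark score in place of clusters. T cell-like cells, which express Prdm1 themselves, held 65.9 (54.4 to 79.1) and 60.9 (50.6 to 72.8) CPM, less than position 10. With barcodes that held any of 7 immune transcripts left out, 3 factors were still higher at the tip in each library.

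Promoter sequences are shown for the 3 factors that rise to the tip and for Cdx2, which falls, so that the letters upstream of genes of opposite course can be set side by side. They are the 250 bases before a transcript start in RefSeq (GRCm38.p6), written 5′ to 3′ in the direction of transcription, and 5 of the 10 factors (Klf4, Hnf4a, Cdx2, Prdm1 and Creb3l3) had an entry in the table. Capitals mark matches, on either strand, to 5 short motifs of the families that the members belong to. The GATA motif was searched as AGATAA. The core of the HNF4 motif was searched as CAAAG, and the CDX motif as TTTATNG, with any base at N. The GC box bound by KLF factors was searched as CCNCNCCC. For CREB factors the core TGACG was searched. Matches to the GC box may overlap one another. The Prdm1 sequence lies inside the span of the gene given above, before an internal start.
Klf4, chr4:55532476-55532725, minus strand: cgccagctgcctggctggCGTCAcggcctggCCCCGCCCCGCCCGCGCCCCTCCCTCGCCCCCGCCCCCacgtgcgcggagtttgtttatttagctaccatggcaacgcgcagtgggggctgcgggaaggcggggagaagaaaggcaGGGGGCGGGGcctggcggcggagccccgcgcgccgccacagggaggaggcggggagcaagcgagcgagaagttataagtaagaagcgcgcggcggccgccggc
Creb3l3, chr10:81098873-81099122, minus strand: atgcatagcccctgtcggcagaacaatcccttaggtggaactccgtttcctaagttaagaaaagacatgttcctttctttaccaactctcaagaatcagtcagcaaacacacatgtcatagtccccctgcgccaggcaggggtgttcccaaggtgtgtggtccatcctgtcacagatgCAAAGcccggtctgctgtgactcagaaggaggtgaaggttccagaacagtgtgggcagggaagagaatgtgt
Prdm1, chr10:44458749-44458998, minus strand: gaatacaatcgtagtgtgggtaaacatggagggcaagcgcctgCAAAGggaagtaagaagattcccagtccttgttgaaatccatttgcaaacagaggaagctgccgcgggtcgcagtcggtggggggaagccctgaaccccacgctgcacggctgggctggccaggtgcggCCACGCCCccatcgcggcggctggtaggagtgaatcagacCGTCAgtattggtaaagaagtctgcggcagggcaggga
Cdx2, chr5:147307250-147307499, minus strand: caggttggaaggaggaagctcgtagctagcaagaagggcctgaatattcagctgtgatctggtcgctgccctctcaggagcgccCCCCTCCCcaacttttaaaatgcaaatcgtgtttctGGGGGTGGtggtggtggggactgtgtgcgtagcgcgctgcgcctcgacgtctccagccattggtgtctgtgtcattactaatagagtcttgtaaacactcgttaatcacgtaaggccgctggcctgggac

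The Klf4 promoter held 9 GC boxes, 7 of which began between 219 and 189 bases before the start and overlap, and 1 CREB core 232 bases before it, and was 74% G and C, against a median of 52.4% over 32851 promoters of the table. The Cdx2 promoter held 2 GC boxes and the Prdm1 promoter 1. A GC box was found in 45.9% of all promoters, an HNF4 core in 48.6%, a CREB core in 17.8%, a GATA motif in 9.99% and a CDX motif in 9.81%, so that single matches to the GC box or the HNF4 core are common. The Creb3l3 promoter held 1 match in all, an HNF4 core 72 bases before the start. An HNF4 core and a CREB core also lay in the Prdm1 promoter, 207 and 38 bases before the start, and none of the 4 sequences held the GATA or CDX letters. Creb3l3 and Hnf4a each had another start in the table, and the upstream bases of the other Creb3l3 start held 7 matches, among them 2 GC boxes and 1 CREB core. In the 3 sequences printed for the rising factors no motif was common to all, whereas with that other Creb3l3 start the GC box and the CREB core were. These are letter matches and were not measured as binding.

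Klf5 and the CDX pair ran the opposite way. Klf5 (ENSMUSG00000005148, chr14:99298691-99315036, plus strand), a driver of crypt cell division, was at 799.7, 1244, 758, 509, 419.6, 311, 238, 163, 113 and 75.5 CPM from position 1 to 10 in Adipfl/fl mice. In Adipfl/flpVilli-CreT mice it was at 714, 1049, 729, 445, 426, 304, 188, 132, 88.4 and 69.7. The TA-like cells were highest in both libraries, and the levels then fell step by step, the only step within counting error being that from position 4 to 5 in Adipfl/flpVilli-CreT mice. Tip-like cells held 0.157 (0.141 to 0.174) times the bottom-like level in Adipfl/fl mice and 0.125 (0.116 to 0.135) times in Adipfl/flpVilli-CreT mice. This was the deepest fall among the 10 factors over the pooled tip-like class. With position 10 alone as the tip, an alternative chosen after the data were seen, the log2 folds of Klf5 were -3.33 and -3.39, and those of Cdx2 were lower, at -3.74 and -3.67.

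Cdx2 (ENSMUSG00000029646, chr5:147300805-147307270, minus strand) encodes the homeobox factor that makes endoderm intestinal, and Cdx1 (ENSMUSG00000024619) a relative that is strongest in the crypt. Cdx1 was at 218, 166, 84.5, 60.3, 42.6, 50.3, 65.4, 53.3, 29.8 and 15.1 CPM from position 1 to 10 in Adipfl/fl mice and at 222, 190.2, 78.8, 56.7, 53.1, 51.5, 58.8, 41.5, 33.6 and 19.3 in Adipfl/flpVilli-CreT mice. It fell at each step from position 1 to 4 in both libraries, and neighbours from position 5 to 8 did not differ beyond counting error in Adipfl/fl mice, nor those from 4 to 7 in Adipfl/flpVilli-CreT mice. Cdx2 was at 138, 146, 162, 154, 122, 93.1, 77.6, 64.7, 43.3 and 12.1 in Adipfl/fl mice and at 123, 160.4, 156, 131, 125, 121, 103, 78.2, 48.7 and 12.2 in Adipfl/flpVilli-CreT mice. It had no fall beyond counting error from crypt to villus bottom in either library, and was lowest at position 10, at 12.1 and 12.2. The tip over bottom log2 folds were -1.34 and -1.37 for Cdx1 and -1.97 and -1.87 for Cdx2. With the mitochondrial limit of 10% those of Cdx2 were -0.97 and -0.85, no longer past 2-fold in either library. The log2 fold of Cdx1 in Adipfl/flpVilli-CreT mice was then -0.83, also short of 2-fold.

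Hnf4g and Maf were arched, low in the crypt, high in the middle and low again at the last position. Hnf4g (ENSMUSG00000017688, chr3:3508030-3658052, plus strand), the nuclear receptor that shares targets in brush border and lipid genes with Hnf4a, was at 51.1, 153, 311, 371, 378, 381, 357, 295, 122 and 24.2 CPM from position 1 to 10 in Adipfl/fl mice. The values in Adipfl/flpVilli-CreT mice were 53.8, 153, 337, 363, 378, 404, 335, 232, 104 and 35.2. Neighbouring positions from 4 to 6 did not differ beyond counting error in either library. Between the highest and the lowest position the level changed 15.8-fold (10.5 to 24.8) in Adipfl/fl mice and 11.5-fold (9.27 to 14.3) in Adipfl/flpVilli-CreT mice, in both cases from position 6 to position 10.

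Maf (ENSMUSG00000055435, chr8:115682942-115707794, minus strand) encodes the leucine-zipper factor c-MAF, which is known to promote the mid-villus programme of nutrient uptake. It was at 27.0, 147, 566, 1056, 1048, 1066, 1117, 978, 346 and 49.3 CPM from position 1 to 10 in Adipfl/fl mice. In Adipfl/flpVilli-CreT mice it was at 34.5, 160.4, 574, 959, 1053, 1092, 1005, 724, 267 and 63.8. Neighbouring positions from 4 to 7 did not differ beyond counting error in Adipfl/fl mice, and the level at position 10 was less than that in the villus bottom in both libraries. Since the tip-like class joins positions 8 to 10, its summed level hides this: the tip over bottom fold was 0.829 (0.78 to 0.88) in Adipfl/fl mice and 0.511 (0.487 to 0.535) in Adipfl/flpVilli-CreT mice, neither past 2-fold. With the mitochondrial limit of 10% the direction turned in Adipfl/fl mice, to a log2 fold of 0.49 in place of -0.27. Against the mid-villus-like cells the tip-like cells were lower in both, at 0.444 (0.421 to 0.469) and 0.291 (0.278 to 0.304) times. Set against bottom-like cells, position 10 alone had log2 folds of -3.52 and -3.17 for Maf, and of -3.69 and -3.26 for Hnf4g, an alternative chosen after the data were seen.

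Hnf4a and Gata4 differed by less than 2-fold between the villus bottom-like and tip-like classes in both libraries. Hnf4a passed that line under some alternatives. Hnf4a (ENSMUSG00000017950, chr2:163506808-163572910, plus strand) was at 240.2, 331, 217, 165, 189, 190.4, 245, 321, 370.1 and 413 CPM from position 1 to 10 in Adipfl/fl mice and at 258, 315, 205, 162, 180.2, 206, 246, 322, 379.6 and 447 in Adipfl/flpVilli-CreT mice. It dipped at position 4 and was highest at position 10 in both libraries, and so was low along the villus where Hnf4g was high. Its tip over bottom folds, 1.69 (1.56 to 1.83) and 1.90 (1.80 to 2.01), were below 2, and with mt- UMIs left out of the total they were 1.95 and 2.21. Gata4 (ENSMUSG00000021944, chr14:63198922-63271692, minus strand), a factor of the duodenum and jejunum that is low in the ileum, was at 56.9, 94.7, 67.4, 61.7, 71.8, 47.8, 55.8, 69.1, 66.4 and 58.4 in Adipfl/fl mice and at 56.6, 87.7, 75.3, 59.7, 60.6, 64.1, 60.5, 76.4, 67.7 and 56.8 in Adipfl/flpVilli-CreT mice. No neighbouring positions from 6 to 10 differed beyond counting error in either library. Gata4 was thus the member least changed along the axis, with highest over lowest folds of 1.98 (1.44 to 2.75) and 1.55 (1.27 to 1.90). Its tip over bottom fold was 0.964 (0.814 to 1.14) and 0.874 (0.783 to 0.975), and turned above 1 in both libraries, to 1.12 and 1.02, when mt- UMIs were left out of the total.

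Within related pairs the share of UMIs needs no total, so mt- UMIs in the total do not enter it. The choice of cells by mitochondrial content can still move it. Genes differ in capture, so only the change of a share along the axis is read. Hnf4g took 17.5, 31.7, 58.9, 69.2, 66.7, 66.7, 59.3, 47.9, 24.8 and 5.53 percent of the Hnf4a and Hnf4g UMIs from position 1 to 10 in Adipfl/fl mice. In Adipfl/flpVilli-CreT mice the percentages were 17.3, 32.8, 62.2, 69.2, 67.7, 66.2, 57.6, 41.9, 21.6 and 7.31. The Hnf4g share thus rose from the crypt to the middle of the villus and fell again to the tip. In villus bottom-like cells the share was 58.9% (57.1% to 60.7%) in Adipfl/fl and 62.2% (61.0% to 63.4%) in Adipfl/flpVilli-CreT mice, and in villus tip-like cells 29.2% (27.1% to 31.4%) and 21.6% (20.4% to 22.9%). With the mitochondrial limit of 10%, 29 tip-like cells were left in Adipfl/fl mice. Only 1 of the 3 pairs then differed between bottom and tip beyond counting error in that library.

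Klf4 took 17.5, 3.89, 11.2, 35.9, 49.4, 62.5, 70.9, 83.6, 91.2 and 95.3 percent of the Klf4 and Klf5 UMIs over the same positions in Adipfl/fl mice and 17.7, 8.26, 12.4, 36.3, 48.0, 63.8, 79.1, 87.3, 92.9 and 95.6 percent in Adipfl/flpVilli-CreT mice. The share was lowest in TA-like cells and rose at every later position in both libraries. Cdx1 took 61.2, 53.1, 34.3, 28.2, 25.9, 35.1, 45.7, 45.2, 40.8 and 55.6 percent of the Cdx1 and Cdx2 UMIs in Adipfl/fl mice, and 64.4, 54.2, 33.6, 30.3, 29.8, 29.9, 36.4, 34.7, 40.8 and 61.2 percent in Adipfl/flpVilli-CreT mice. In both libraries the share fell from the crypt to position 4 and was higher again at position 10, where only 27 and 85 UMIs of the pair were read and the intervals were wide.

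**Figure D2:**
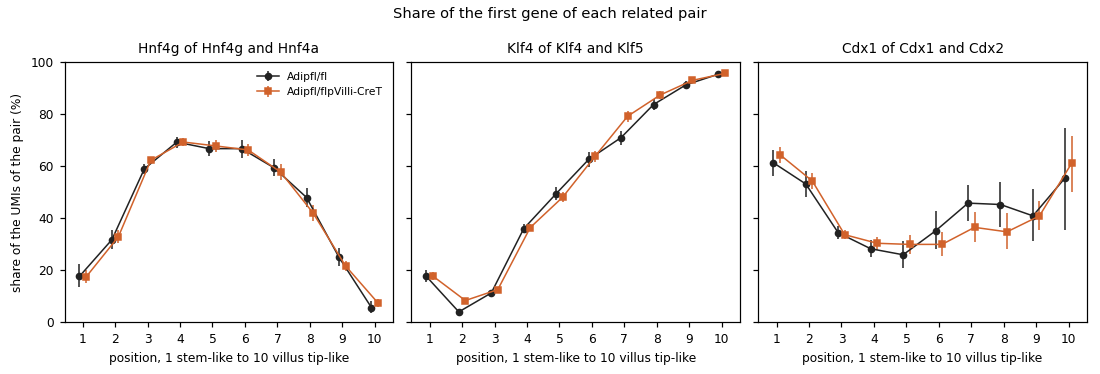
Share, in percent of the UMIs of the pair, of Hnf4g among Hnf4g and Hnf4a, of Klf4 among Klf4 and Klf5 and of Cdx1 among Cdx1 and Cdx2 at 10 positions from stem-like (1) to villus tip-like (10) cells, with 1 line per library and exact 95% binomial intervals. Hnf4g rises to 69.2% at position 4 and falls below 8% at position 10, Klf4 climbs from below 9% in TA-like cells to above 95%, and Cdx1 is lower at positions 3 to 5 than in the crypt.

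The 10 factors were set beside 3 lists written from general knowledge. Of 62 other transcription factors of the intestine, 49 passed 10 CPM in either class of each library, 6 were at least 2-fold higher at the tip in both libraries and 16 lower. In each library on its own 7 and 9 of the 49 were higher, against 11.9% and 12% of all genes. Those lower were 16 and 18, against 46.4% and 48.5%. Among the higher ones were Mxd1, an antagonist of MYC, at 10.2 and 9.94-fold in the libraries of Adipfl/fl and Adipfl/flpVilli-CreT mice, Creb3l2 (a relative of Creb3l3) at 5.65 and 4.24-fold, Maff at 4.29 and 4.49-fold, Atf3, a stress factor, at 2.73 and 3.65-fold, and Klf6 at 2.60 and 3.48-fold. The nuclear receptors Nr1h4 and Ppara were among the lower ones. Nr1h4, the bile acid receptor, had 0.139 and 0.113 times the bottom-like level and Ppara, the receptor for fatty acids, 0.0916 and 0.0888 times. The median log2 fold of the list was -0.48 and -0.37, against -0.86 and -0.94 over all genes.

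BMP signals, which strengthen towards the tip, are known to act on villus zonation. Of 15 BMP pathway genes 13 were measured, with median log2 folds of 0.18 and 0.08, and Smad7, an inhibitor that the pathway induces, was 5.07 and 5.51-fold higher at the tip. Smad1, a signal carrier, had 0.163 and 0.207 times the bottom-like level, and Id2, a target, 0.465 and 0.458 times. Among 15 genes known to be controlled by members, 12 and 11 were measured, 7 were higher in both libraries and 1 lower, with medians of 2.53 and 2.41 against -0.86 and -0.94 over all genes, of which 11.9% and 12% were higher and 46.4% and 48.5% lower. These counts and medians include markers that named the cells (Apoa4 and Krt20 for the tip, and Apob, Sis, Mttp and Lct for the mid-villus), whose course is no finding. The lipid carriers led, with Apoa4 at 34.5 and 30.5-fold, Cidec, a lipid droplet gene, at 28.6 and 25.2-fold, and Apoc3, Apoa1 and Apob between 6.70 and 9.95-fold. Alpi (intestinal alkaline phosphatase) rose 3.75 and 4.40-fold, while Sis (sucrase-isomaltase) had 0.205 and 0.207 times the bottom-like level.

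Likeness of pattern was measured over 10 equal bins of the landmark score in each library, as the mean of both within-library Pearson correlations of log2(CPM + 1), among genes with at least 50 CPM in some bin. All points share the libraries and the gradient in depth, so the values are descriptions. The gene most like Klf4 was Creb3l3 (0.996), followed by Tle3 and Apob (both 0.994), and the most like Creb3l3 after Klf4 were Alpi and Apol9a (both 0.995). Prdm1 ran most closely with Gprc5a (0.992), Ndfip2 (0.992) and Rab30 (0.990). Hnf4g was most like Lta4h (0.995), Gucy2c (0.992) and Sesn1 (0.992), and Maf most like Clec2h (0.994), Slc25a15 (0.990) and 6820431F20Rik (0.990). Klf5 ran with genes of the respiratory chain and ATP synthase, Uqcr11 (0.997), Atp5k (0.996) and Atp5h (0.996). For Cdx1 the nearest genes were H2aj (0.977), Mrps31 (0.966) and Arglu1 (0.965), for Cdx2 Nfe2l2 (0.989), Slc25a11 (0.989) and Sgpp2 (0.988), and for Hnf4a Epcam (0.990), Marcks (0.990) and Slc17a5 (0.986). Gata4 had no close match, its nearest genes Trir, Phgr1 and Mob4 reaching 0.710, 0.632 and 0.632. Between libraries the bin levels of the other 9 factors correlated at 0.954 to 0.997, and those of Gata4, which hardly changed along the axis, at 0.228.

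Few of the factors were past 1.5-fold between genotypes in the villus. A factor was counted where its level in Adipfl/flpVilli-CreT mice was at least 1.5-fold above or below that in Adipfl/fl mice with an interval that excluded 1. In villus bottom-like cells 0 of 10 were past 1.5-fold, with folds from 0.758 to 1.12, against 2.01% of all genes. In mid-villus-like cells 1 of 10 was, against 2.43% of all genes: Prdm1 at 4.62 (3.11 to 6.59) and 7.57 (6.16 to 9.21) CPM, a fold of 1.64 (1.08 to 2.56) on 30 and 100 UMIs. The Prdm1 call was lost in 9 of 15 alternative settings, among them thinned cells. Thinning discarded most of these few UMIs, so the loss there decides little. In villus tip-like cells 1 of 10 was, against 7.33%, and this was Maf. With the mitochondrial limit of 10% it was 4 of 10. The stem-like cells had 0 of 10, against 6.02% of all genes, and the largest gap there among factors with over 10 UMIs in each library was in Maf, at 27.0 (17.9 to 39.0) and 34.5 (28.0 to 42.1) CPM with overlapping intervals. With the mean of per-cell levels, which have no interval, 2 factors were past 1.5-fold in stem-like cells by the fold alone. Klf5, the factor of dividing cells, had 0.893 (0.823 to 0.969) times the Adipfl/fl level in stem-like cells and 0.843 (0.794 to 0.896) times in TA-like cells. With 1 library per genotype none of these values can be set against a spread between animals.

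Maf in villus tip-like cells was at 469 (447 to 492) CPM in Adipfl/fl and 293 (282 to 305) in Adipfl/flpVilli-CreT mice, a fold of 0.625 (0.587 to 0.666). The 3 positions that make up the class were unequally filled, with 374, 301 and 223 cells in Adipfl/fl mice and 538, 937 and 631 in Adipfl/flpVilli-CreT mice, and Maf falls steeply across them. Within positions the folds were 0.74 (0.682 to 0.804) at position 8, 0.772 (0.69 to 0.863) at position 9 and 1.29 (0.937 to 1.82) at position 10, and none was past 1.5-fold. With the 3 positions weighted equally, a choice made after the data were seen, the fold was 0.768, and with the villus cut into 5 equal groups by the landmark score it was 1.08 in the highest group and 0.757 (0.694 to 0.827) in the one below it. Hnf4g, which falls over the same positions, had a class fold of 0.713 (0.639 to 0.796) and folds of 0.788 (0.679 to 0.914), 0.853 (0.709 to 1.03) and 1.46 (0.924 to 2.39) within them. Klf4, with a class fold of 1.05 (1.02 to 1.09), and Creb3l3, with 0.935 (0.904 to 0.968), were nearly level between the libraries over the class. Within positions Creb3l3 was lower in Adipfl/flpVilli-CreT mice at position 10, at 1724 (1644 to 1808) and 1467 (1422 to 1513) CPM. At position 9 it was at 1480 (1415 to 1546) and 1347 (1310 to 1384), and at position 8 the intervals overlapped.

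Klf4 and Creb3l3 rise towards the villus tip. Klf4 was also high in goblet-like cells, at 1235 CPM in Adipfl/fl and 961 in Adipfl/flpVilli-CreT mice. In TA-like cells these 2 of the 10 factors were past 1.5-fold, against 5.38% of all genes. Klf4 was at 50.3 (39.1 to 63.8) CPM in Adipfl/fl mice and 94.4 (83.5 to 106) in Adipfl/flpVilli-CreT mice, a fold of 1.88 (1.43 to 2.49). Creb3l3 was at 20.7 (13.8 to 29.9) and 53.8 (45.7 to 63.0), a fold of 2.60 (1.73 to 4.04). Transcripts of villus enterocytes in general were also higher in that class of the same library: the summed level of 20 mid-villus and villus tip markers was 1923 and 2791 CPM, a fold of 1.45 (1.39 to 1.52), with 17 of 20 higher. In T cell-like cells, which are not known to make enterocyte transcripts, the same sum was 2052 and 5385, a fold of 2.62 (2.53 to 2.73), with 20 of 20 higher. There 7 of the 10 factors were past 1.5-fold, all higher, against 12.5% of all genes, Klf4 at 2.03 (1.65 to 2.51) and Creb3l3 at 2.60 (2.07 to 3.30) times the Adipfl/fl level. In stem-like cells the sum was also higher, at 760 and 1154 CPM, a fold of 1.52 (1.40 to 1.64), with 19 of 20 higher. Klf4, at 169.8 and 153 CPM, and Creb3l3, at 25.1 and 25.3, were not higher there. Of these 3 classes, all had more enterocyte RNA in Adipfl/flpVilli-CreT mice, but Klf4 and Creb3l3 were higher only in TA-like and T cell-like cells. The part of that RNA in the TA-like difference was not tested. Leaving out barcodes with immune transcripts lowered the TA-like folds to 1.46 and 1.77, and 1 of the factors was then past 1.5-fold. In cells thinned to 2000 UMIs 0 were, but the median TA-like cell held 25627 and 22590.5 UMIs, so thinning discarded most counts. The intervals widen with that loss, and the lost calls cannot tell whether depth had a part.

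**Figure D3:**
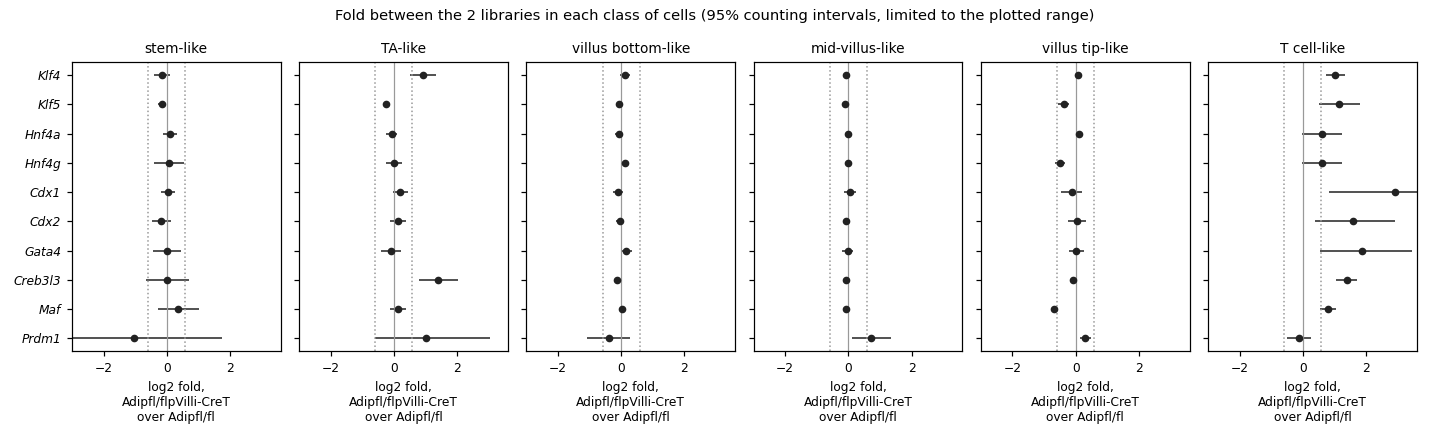
Log2 fold of Adipfl/flpVilli-CreT over Adipfl/fl (horizontal axes) for each factor in 6 classes of cells, 1 library per genotype, with exact 95% counting intervals as bars, ending at the plotted range, and dotted lines at 1.5-fold. Points lie close to 0 in villus bottom-like and mid-villus-like cells apart from Prdm1, Maf is at -0.68 in villus tip-like cells, Klf4 and Creb3l3 are at 0.91 and 1.38 in TA-like cells, and 9 of the 10 factors lie above 0 in T cell-like cells.

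Several of the factors were also read outside the absorptive lineage. Klf4 reached 1235 (1186 to 1286) and 961 (930.0 to 993) CPM in goblet-like cells of Adipfl/fl and Adipfl/flpVilli-CreT mice. This was above the 1166 of villus tip-like cells in the first library and below their 1227 in the other. The goblet-like cluster passed all 7 goblet markers, but also 6 Paneth markers, so its levels may not be those of goblet cells alone. Cdx1 was at 244 (207 to 286) and 253 (217 to 293) in tuft-like cells, a class in which Cdx2 stood at 77.6 (57.2 to 103) and 97.2 (75.4 to 123). The Cdx1 interval there overlapped that of stem-like cells and lay above that of villus bottom-like cells in both libraries. Maf was at 708 (609.6 to 819) and 559 (447 to 691) in myeloid-like cells, where it is a known factor of macrophages. Prdm1 was at 39.8 (19.1 to 73.3) and 95.9 (62.1 to 142) in B or plasma-like cells, on 30 and 29 cells.

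Between genotypes, 2 of the 10 factors were past 1.5-fold in goblet-like cells, against 12.2% of all genes, and 2 in enteroendocrine-like cells, against 9%. All 4 were higher in Adipfl/flpVilli-CreT mice: Hnf4g at 1.54 (1.29 to 1.85) and Creb3l3 at 1.93 (1.64 to 2.28) times in goblet-like cells, and Creb3l3 at 1.83 (1.22 to 2.78) and Maf at 2.20 (1.51 to 3.27) times in enteroendocrine-like cells. The summed enterocyte markers moved the same way in these classes, by 1.53 and 1.63 times, and their part in the result was not tested. Klf4, which goblet-like cells hold at a high level, went the other way there, at 0.778 (0.738 to 0.82) times. A part of the Paneth transcripts in that cluster in these folds was not tested.

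**Figure D4:**
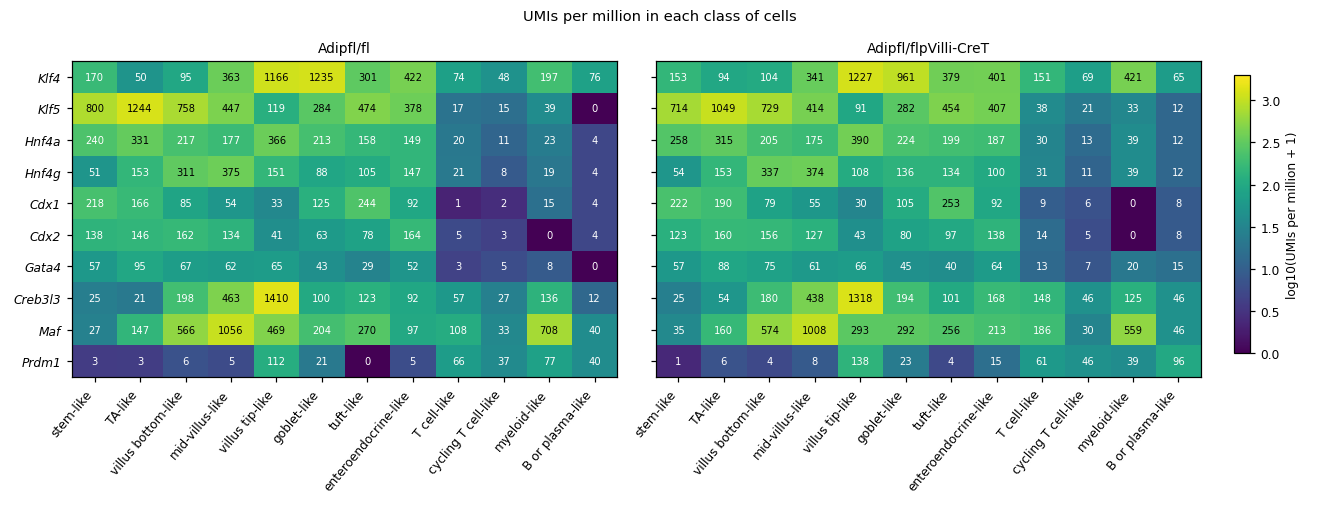
Level in CPM, UMIs per 1000000, of each factor (rows) in 12 classes of cells (columns), 1 panel per library, with the value printed in each cell and colour on a log10 scale. Klf4 is high in both villus tip-like and goblet-like cells, Cdx1 in stem-like and tuft-like cells, Maf in mid-villus-like and myeloid-like cells, and the Cdx1, Cdx2 and Gata4 values are below 15 in T cell-like cells.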

How the data were processed

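Tissue was dissociated, dead cells were removed and 3′ libraries were made with the 10x Genomics v3 chemistry, 1 per genotype. The authors converted reads with bcl2fastq 5.0.1 and deposited UMI counts per gene and barcode made with Cell Ranger on the mm10 genome, per the submitters' processing notes (the table headers name version 7.1.0). The deposited counts are not normalized. Barcodes with more than 500 genes and less than 25% mt- UMIs were kept. Counts were clustered with Seurat 5.3.0 in R 4.3.3 (scale factor 10000, 2000 variable genes without the 10 factors, 20 principal components, resolution 0.8, and the crypt cells split again at 0.4), and clusters were named from marker lists by at least 3 markers 2-fold above the other cells. Scrublet called 3 and 2 cells, so it had not worked, and no doublets were removed. All later steps used Python 3.11.15 with scipy 1.17.1.

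Counts were summed per class or position and given as CPM (UMIs per 1000000 UMIs), with exact Poisson intervals for levels, exact conditional binomial intervals for folds and Clopper-Pearson intervals for shares, all at 95%. Intervals cover counting error only, and no test was made because each genotype had 1 library. Genes entered the background with at least 10 CPM in either group. For shares of cells, cells were thinned to 2000 UMIs and shallower ones left out. Named genes were all 10 members, the listed genes past 2-fold in both libraries (largest 8 at most in each direction; only some are given with values, and 1 is not reported here), and the 3 genes most like each member. Alternatives changed the cell filters, the clustering, the total, the cell weights, the depth and the grouping of cells. The members, lists and alternatives were chosen with earlier results of these data known. On simulated counts for 7588 genes of the tip against bottom comparison in Adipfl/fl mice, the interval excluded 1 for 98% or more of changed genes at each true fold of 0.25, 0.5, 2 or 4, and for 4.55% of unchanged ones. These were Poisson counts, the model that the interval itself assumes. They check the computation only, since differences between cells, animals and processing were not simulated.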

Additional observations from a re-analysis of the deposited data

How the results depend on the processing

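No paired analysis was possible because there was 1 library per genotype. The count of factors at least 2-fold higher at the villus tip was 3 or 4 in both libraries under all 16 alternatives. In Adipfl/fl mice the count of lower factors, 4, was the same in only 2 of the 16 alternatives and ranged from 1 to 5. It became 1 with a mitochondrial limit of 10%. It was 2 with more than 1000 genes, with the factors among the variable genes and at resolution 0.6. It was also 2 without the highest doublet scores and in enterocytes leaning to proximal or to distal genes. The leaning rested mostly on Lct and Slc51b, since the other segment genes reached at most 37.0 CPM. Lct is also a mid-villus marker, so these groups may differ in zone as well as segment. The doublet scores were those of the Scrublet run that had not worked. The 10% limit left 29 and 62 tip-like cells. With it the tip over bottom log2 fold of Hnf4g in Adipfl/fl mice turned to 0.048 and that of Maf to 0.49. Cdx2 was no longer past 2-fold in either library, nor was Cdx1 in Adipfl/flpVilli-CreT mice, at a log2 fold of -0.83. In Adipfl/fl mice the Cdx1 share was 34.3% in bottom-like and 44.6% in tip-like cells in the main setting. With the 10% limit its direction turned, to a tip minus bottom difference of -1.70 percentage points. In that library 1 of the 3 pairs then differed beyond counting error. The Cdx1 share in Adipfl/flpVilli-CreT mice, 33.6% in bottom-like and 41.7% in tip-like cells in the main setting, also turned. It differed by -1.40 points in distal-leaning enterocytes.

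Between genotypes, the stem-like count of 0 became 2 with the mean of per-cell levels, a setting without intervals in which the fold alone decided. The TA-like count of 2 became 0 in thinned cells, with most UMIs of the class discarded, and 1 without barcodes with immune transcripts. It was unchanged in 9 of 12 alternatives and at most 3. The mid-villus-like count of 1 became 0 with the 10% limit, the mitochondrial share from protein-coding genes, more than 1000 genes, the factors among the variable genes, resolution 0.6, 30 principal components, no highest doublet scores, thinned cells and distal-leaning cells. The villus tip-like count of 1 became 4 with the 10% limit and 0 with the share from protein-coding genes, in proximal-leaning and distal-leaning cells, with 5 equal groups of the landmark score, where the Maf log2 fold was 0.11, and with equal weights per cluster, a choice made after the data were seen. The villus bottom-like count was 0 in all 15 alternatives. The cause was not tested. Of 320 tip over bottom values under alternatives 308 kept their direction, as did 626 of 700 genotype values and 94 of 96 pair shares. Fewer lay within the interval of the main setting: 160 of the 320, 603 of the 700 and 49 of the 96. Processing thus moved many values beyond their intervals, which cover counting error only.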
